A study of Homo sapiens with 9 samples.

Results

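The 10 non-coding snoRNA host transcripts GAS5, ZFAS1, SNHG1, SNHG3, SNHG5, SNHG8, SNHG12, SNHG16, DANCR and EPB41L4A-AS1 were followed in MOLM13 cells after knockdown of DDX41, a DEAD-box RNA helicase that is mutated in inherited predisposition to myeloid malignancy. They were chosen by symbol, with earlier fold changes of these same libraries known and without a numerical threshold, and make up 10 of the 30017 rows of the count table. Their own changes are therefore given as a description, with no p-value for any host, and counts of hosts past a threshold are printed beside the share of all genes and support nothing. MOLM13 is a human acute myeloid leukemia cell line of monocytic character. Cells received a pLKO-GFP lentivirus carrying a control hairpin (sh-Control) or 1 of 2 hairpins against DDX41 (shDDX41 #1 and shDDX41 #2), and transduced GFP-positive cells were sorted on day 4. Each of the 3 groups had 3 libraries, named A, B and D, and all 9 shared the vector, the sort and the cell line. The labels do not say that A, B and D were separate cultures, so the p-values below measure the spread between these samples, which may be technical. In bulk RNA, fewer cells carrying a transcript and less of it per cell cannot be told apart.

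A snoRNA host transcript is spliced, and small nucleolar RNAs are trimmed out of its introns. Box C/D snoRNAs (SNORD genes) guide 2′-O-methylation of ribosomal RNA, and box H/ACA snoRNAs (SNORA genes) guide pseudouridylation. The spliced exons of many non-coding hosts contain only short open reading frames, are engaged by ribosomes and are then removed by nonsense-mediated decay (NMD), and many hosts start with a 5′ terminal oligopyrimidine (TOP) tract like that of ribosomal protein mRNAs.

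Library totals ran from 16385238 to 20510032 counts, and 12712 genes (42.3% of the table) passed a filter on low counts. All 10 host transcripts passed it. All 10 MOLM13 markers examined, among them CD33, FLT3, SPI1, MPO and LYZ, were also detected above the filter. Of 10 markers of other cell types 3 passed (KRT8, KRT18 and PECAM1, the last also found on myeloid cells), and those that did not included HBB, EPCAM, MS4A1, CD3E and COL1A1. LYZ, which encodes lysozyme, was 0.96 higher on the log2 scale in shDDX41 #2 than in sh-Control (SE 0.0658, adjusted p = 1.6e-07), and its part in the values below was not tested. Library shDDX41 #1 D stood farthest from its partners. Its chi-square per degree of freedom against them was 17.7 and 19.2, where the other pairs within a group lay between 2.46 and 10.2.

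DDX41 itself followed the labels. Its level in CPM (counts scaled to the library total, with TMM factors) was 117, 115 and 113 in sh-Control A, B and D. It was 12.2, 12.9 and 9.95 CPM in shDDX41 #1 and 38.9, 39.9 and 42.5 CPM in shDDX41 #2. Group means were 115 ± 1.76, 11.7 ± 1.56 and 40.4 ± 1.85 CPM (SD, n = 3), with no overlap between any groups. The log2 fold change was −3.29 for shDDX41 #1 (SE 0.0881, adjusted p = 4.1e-12) and −1.51 for shDDX41 #2 (SE 0.0771, adjusted p = 7.0e-09), and the hairpins differed by −1.79 (SE 0.0896, adjusted p = 2.2e-09). Both hairpins were compared with the same 3 control libraries, so their columns of values are set side by side and are not independent of each other.

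The first bases of the annotated transcripts were searched for a TOP-like start. A TOP-like start was defined as a C at the first position followed by at least 4 pyrimidines. In GENCODE release 29 it was found in 21 of the 129 annotated transcripts of the 10 genes (16.3%) and in 2.41% of all 206694 transcripts. It was the start of a minority of transcripts in each gene, 6 of 29 in GAS5, 1 of 25 in SNHG1 and 3 of 23 in SNHG5. Of the 10 genes, 8 had at least 1 such transcript, and DANCR and EPB41L4A-AS1 had none. At least 1 was found in 6.58% of all 58721 annotated genes and in 17.1% of the 17846 genes with at least 3 transcripts, the fewest that any of the 10 had, and genes with many transcripts have more chances to hold one. For each of the 8, the first 40 bases of 1 such transcript are printed 5′ to 3′, with the pyrimidine run in capitals.
GAS5: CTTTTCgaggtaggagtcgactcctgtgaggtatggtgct
ZFAS1: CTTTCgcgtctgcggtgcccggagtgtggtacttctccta
SNHG1: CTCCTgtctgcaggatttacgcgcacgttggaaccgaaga
SNHG3: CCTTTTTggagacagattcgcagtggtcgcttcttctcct
SNHG5: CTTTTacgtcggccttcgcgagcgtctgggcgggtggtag
SNHG8: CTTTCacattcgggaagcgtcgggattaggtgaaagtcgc
SNHG12: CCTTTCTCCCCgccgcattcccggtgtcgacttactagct
SNHG16: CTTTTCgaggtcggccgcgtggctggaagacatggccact
GAS5 and SNHG16 opened with the same 6 pyrimidines, and SNHG12 had the longest run, of 11. These are annotated starts, which were not measured in these libraries.

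With shDDX41 #1, 9 of the 10 hosts passed an adjusted p of 0.05 in the higher direction, where 23.7% of all tested genes did so, and 0 passed in the lower direction, where 24.1% of all genes did. The exception was SNHG12. With shDDX41 #2, 0 of 10 passed as higher (11.6% of all genes) and 1, SNHG1, passed as lower (13.4% of all genes). The 1 call with shDDX41 #2 became 2 without sh-Control A or without sh-Control D, and 3 without shDDX41 #1 D. Set directly against each other, shDDX41 #1 was above shDDX41 #2 for 10 of 10 hosts (24.6% of all genes higher, 24.2% lower). The median log2 fold change of the hosts was 1.10 for shDDX41 #1, −0.03 for shDDX41 #2 and 1.12 between the hairpins, beside medians of 0.01, −0.01 and 0.01 over all tested genes. Groups did not overlap for 9, 4 and 10 hosts, while 53.1%, 43.8% and 57.7% of all tested genes had groups that did not overlap in the same 3 comparisons. Because the genes were picked with these contrasts known, nothing is read from these counts. Summed, the 10 transcripts took 0.0990% ± 0.0100 of a library's counts in sh-Control, 0.209% ± 0.0132 in shDDX41 #1 and 0.0977% ± 0.00200 in shDDX41 #2 (SD, n = 3).

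**Figure D1:**
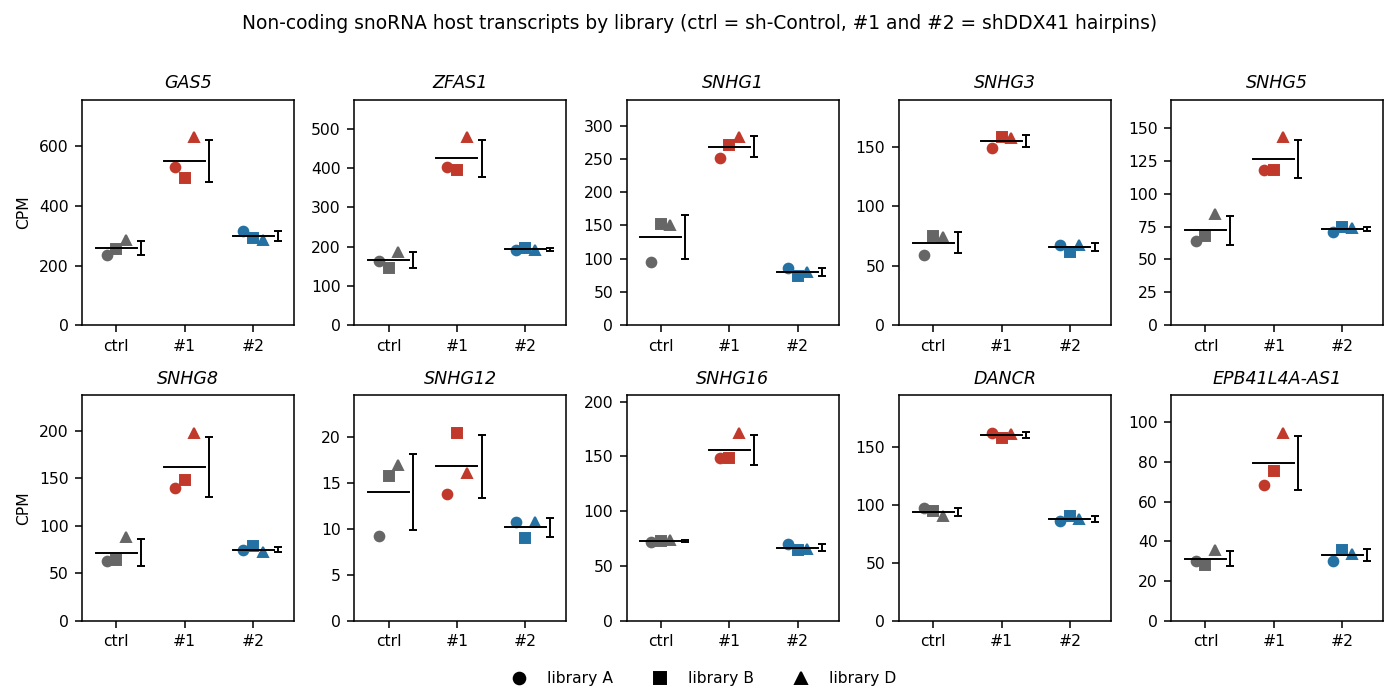
Level of each host transcript in CPM (y axis, from 0) in each library of the 3 groups (x axis). Symbols mark libraries A, B and D, lines the group means and bars the SD. The 3 shDDX41 #1 libraries lie above the other 6 in every panel except SNHG12.

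The hosts of box C/D snoRNAs come first. GAS5, named for its accumulation in growth-arrested cells, lies at chr1:173863901-173869045 on the minus strand of GRCh38 with up to 13 exons. Its level was 236.8, 254.9 and 285.9 CPM in sh-Control A, B and D. It was 531.3, 493.2 and 630.1 CPM in shDDX41 #1 and 317.0, 291.6 and 286.4 CPM in shDDX41 #2. All 3 shDDX41 #1 libraries were far above the rest, while the lowest shDDX41 #2 library lay just above the highest control. The log2 fold change was 1.09 (SE 0.0913, or 2.13-fold) with shDDX41 #1 and 0.20 (SE 0.0907) with shDDX41 #2.

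ZFAS1 (chr20:49278178-49289260, plus strand) starts head to head with the zinc finger gene ZNFX1. It stood at 164, 146 and 188 CPM in sh-Control A, B and D, at 402, 394 and 479 CPM in shDDX41 #1, and at 193, 197 and 191 CPM in shDDX41 #2. The shDDX41 #1 change of 1.36 (SE 0.0910, 2.56-fold) was the largest of the 10, and shDDX41 #2 differed from control by 0.22 (SE 0.0903) with groups that did not overlap.

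SNHG1 (chr11:62851978-62855885, minus strand) is the host of SNORD22 and 7 more box C/D snoRNAs. Its levels were 95.2, 152 and 150 CPM in sh-Control A, B and D, 251, 271 and 282 CPM in shDDX41 #1, and 85.9, 74.1 and 79.4 CPM in shDDX41 #2. Control library A was low among the controls, yet no group overlapped another. SNHG1 was the host whose hairpins moved in opposite directions by the most, with 1.02 (SE 0.131) for shDDX41 #1, −0.73 (SE 0.133) for shDDX41 #2 and 1.75 (SE 0.134, 3.36-fold) between them. Leaving out 1 library at a time, the shDDX41 #2 change ran from −0.92 to −0.61.

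SNHG5 (chr6:85677007-85678733, minus strand), which carries the SNORD50 pair, was at 64.2, 67.7 and 84.4 CPM in sh-Control A, B and D, at 118, 118 and 143 CPM in shDDX41 #1 and at 71.2, 74.4 and 73.9 CPM in shDDX41 #2. The shDDX41 #2 libraries lay inside the range of the controls. SNHG16 (chr17:76557764-76565348, plus strand), the host of the SNORD1 group, had the tightest controls, at 71.5, 72.7 and 73.5 CPM, against 148, 148 and 172 CPM in shDDX41 #1 and 69.9, 64.2 and 65.9 CPM in shDDX41 #2. The log2 fold changes were 0.81 (SE 0.0984) and 0.02 (SE 0.0992) for SNHG5, and 1.10 (SE 0.0712) and −0.12 (SE 0.0721) for SNHG16.

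Among the hosts of box H/ACA snoRNAs, SNHG3 (chr1:28505943-28510892, plus strand) carries SNORA73A and SNORA73B, also called U17, which take part in cleavage of the ribosomal RNA precursor. Its level was 59.5, 74.7 and 74.4 CPM in sh-Control A, B and D, 149, 158 and 158 CPM in shDDX41 #1, and 67.6, 61.9 and 67.5 CPM in shDDX41 #2. The shDDX41 #2 values fell within the control range. Its changes were 1.16 (SE 0.0833) and −0.08 (SE 0.0843).

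SNHG8 (chr4:118278762-118279823, plus strand), the host of SNORA24, was at 63.2, 63.5 and 87.8 CPM in sh-Control A, B and D, at 139, 148 and 198 CPM in shDDX41 #1, and at 74.1, 78.2 and 72.5 CPM in shDDX41 #2. Library D was the highest of its group both in sh-Control and in shDDX41 #1. The changes were 1.18 (SE 0.132) and 0.07 (SE 0.133).

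DANCR (chr4:52712394-52720697, plus strand), known for holding back the differentiation of epidermal progenitors, carries SNORA26. It stood at 97.2, 94.2 and 90.0 CPM in sh-Control A, B and D, at 162, 157 and 161 CPM in shDDX41 #1 and at 85.5, 90.3 and 87.5 CPM in shDDX41 #2. DANCR had one of the smallest changes with shDDX41 #1, 0.77 (SE 0.0606, 1.70-fold), and also the smallest error of the 10. With shDDX41 #2 the change was −0.09 (SE 0.0610).

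EPB41L4A-AS1 (chr5:112160526-112162501, plus strand), the host of SNORA13, measured 29.9, 28.2 and 35.7 CPM in sh-Control A, B and D. It reached 68.4, 75.3 and 94.7 CPM in shDDX41 #1 and 29.9, 35.7 and 33.6 CPM in shDDX41 #2. The changes were 1.34 (SE 0.117, 2.54-fold) and 0.08 (SE 0.121), with the shDDX41 #2 libraries inside the control range.

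SNHG12 (chr1:28578538-28582983, minus strand) carries both classes, SNORD99 with SNORA16A, SNORA44 and SNORA61. It had the fewest counts of the 10, from 167 to 342 per library. Its level was 9.27, 15.8 and 16.96 CPM in sh-Control A, B and D, 13.8, 20.5 and 16.1 CPM in shDDX41 #1 and 10.8, 8.98 and 10.7 CPM in shDDX41 #2. Control A lay among the shDDX41 #2 libraries, and controls B and D among those of shDDX41 #1. The fitted change was 0.26 (SE 0.189, 95% interval −0.14 to 0.66) with shDDX41 #1 and −0.47 (SE 0.195) with shDDX41 #2. Leaving out 1 library at a time moved these to between 0.04 and 0.42 and between −0.69 and −0.31. Between the hairpins SNHG12 differed by 0.73 (SE 0.194), the smallest such difference of the 10.

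**Figure D2:**
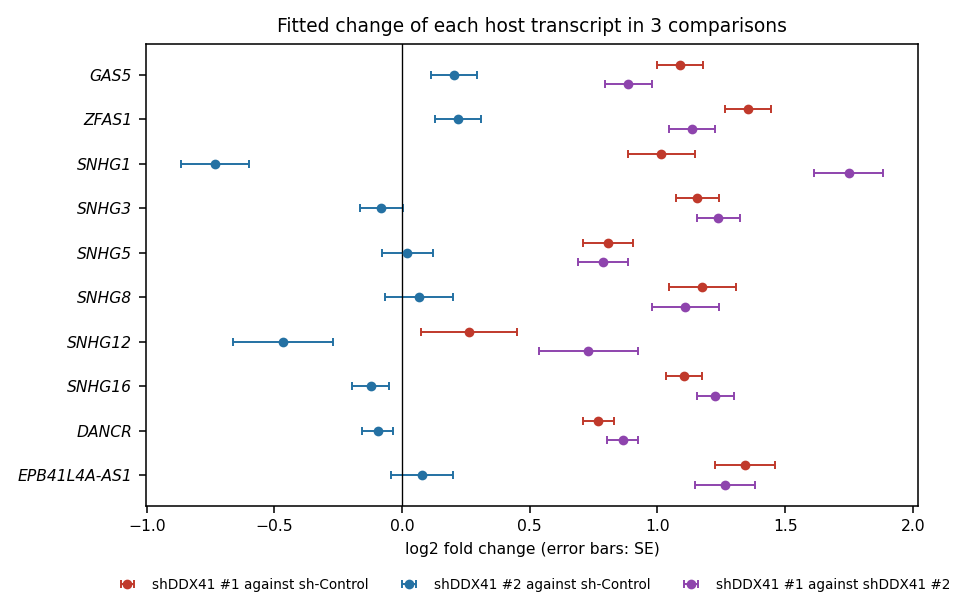
Fitted log2 fold change (x axis) with its SE for each host transcript (y axis) in the 3 comparisons. The shDDX41 #1 changes run from 0.26 to 1.36 and the shDDX41 #2 changes from −0.73 to 0.22.

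The snoRNA genes inside these hosts were counted as rows of their own. Of 35 listed snoRNA genes, 34 were in the table and 28 passed the filter, with 2 to 167 counts per library. Of the 28, 17 had at least 10 counts in every library. Among those 17, 7 were higher and 1 lower with shDDX41 #1 (23.7% and 24.1% of all tested genes), with a median of 0.37, and 0 were higher and 6 lower with shDDX41 #2 (11.6% and 13.4%), with a median of −0.54. Another 5, SNORA26, SNORD74, SNORD99, SNORD12B and SNORA44, reached 10 counts in every shDDX41 #1 library and in every library of no other group. They entered the table of tested genes through the group in which they were high, so their values are given without p-values. Over all 28, 15 were higher with shDDX41 #1 (53.6%) and 1 was lower (3.57%), SNORD27, with a median of 0.70. With shDDX41 #2, 0 were higher and 7 lower (25.0%), with a median of −0.54. Between the hairpins 20 were higher in shDDX41 #1 (71.4%) and 1 lower (3.57%), beside 24.6% and 24.2% of all tested genes, with a median of 1.42. Those counts include the 5 genes, 4 of them among the 15. The 7 lower calls with shDDX41 #2 became 12 without sh-Control A, 2 without sh-Control B, 4 without sh-Control D and 3 without shDDX41 #2 B or D. In poly(A)-selected libraries, reads from an unspliced host or a retained intron cannot be told apart from reads of the snoRNA, and 26 of the 35 snoRNA genes lay under an exon of at least 1 annotated host transcript. The snoRNA rows are therefore not independent of the hosts' own values.

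Printed 5′ to 3′ from GENCODE release 29 are 6 of these snoRNAs. SNORD25, SNORD30 and SNORA24 passed in opposite directions with the hairpins. SNORD47 of GAS5 did so too, but no sequence was found under its symbol. SNORD27 was the row lower with shDDX41 #1, SNORA73A had the smallest adjusted p with shDDX41 #1 among the 17, and SNORA26 had the largest fitted difference between the hairpins. Capitals mark the C box (TGATGA) and D box (CTGA) of SNORD genes and the ACA box at the end of SNORA genes. TGATGA and CTGA were found in 77.4% and 98.3% of 288 annotated SNORD transcripts, and the ACA box in 75.2% of 149 SNORA transcripts.
SNORD25: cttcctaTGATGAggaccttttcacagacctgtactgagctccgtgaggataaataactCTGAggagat
SNORD27: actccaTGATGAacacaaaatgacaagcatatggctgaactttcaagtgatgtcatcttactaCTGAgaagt
SNORD30: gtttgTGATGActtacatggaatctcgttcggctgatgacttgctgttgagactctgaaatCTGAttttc
SNORA73A: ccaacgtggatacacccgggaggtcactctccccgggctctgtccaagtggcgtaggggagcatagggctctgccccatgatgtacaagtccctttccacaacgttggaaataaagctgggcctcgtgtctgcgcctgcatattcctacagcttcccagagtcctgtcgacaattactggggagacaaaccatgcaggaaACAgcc
SNORA24: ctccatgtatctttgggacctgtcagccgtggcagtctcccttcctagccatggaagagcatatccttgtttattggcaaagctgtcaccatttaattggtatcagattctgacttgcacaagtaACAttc
SNORA26: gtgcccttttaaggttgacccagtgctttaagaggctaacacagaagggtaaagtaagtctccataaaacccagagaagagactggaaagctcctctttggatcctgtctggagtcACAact
On GRCh38 the first 3 lie on the minus strand, SNORD25 at chr11:62855564-62855632, SNORD27 at chr11:62855012-62855083 and SNORD30 at chr11:62853663-62853732. The other 3 lie on the plus strand, SNORA73A at chr1:28507366-28507571, SNORA24 at chr4:118279190-118279320 and SNORA26 at chr4:52713249-52713370.

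SNORA26, in an intron of DANCR, is one of the 5 genes that passed the filter through shDDX41 #1. It had 7, 7 and 7 counts in sh-Control A, B and D, 34, 36 and 21 in shDDX41 #1, and 4, 3 and 2 in shDDX41 #2. The 3 groups did not overlap. The fitted differences were 2.22 (SE 0.337) for shDDX41 #1, −1.21 (SE 0.522) for shDDX41 #2 and 3.43 (SE 0.397) between the hairpins. No annotated DANCR transcript had an exon over SNORA26.

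In GAS5, 6 of 9 tested snoRNA genes were higher with shDDX41 #1 and 0 lower, beside 23.7% and 24.1% of all tested genes. Among them, SNORD74, which that count includes, passed the filter through shDDX41 #1. It had 9, 11 and 8 counts in sh-Control A, B and D, 37, 42 and 40 in shDDX41 #1, and 13, 7 and 9 in shDDX41 #2. Only the shDDX41 #1 libraries stood apart. Its fitted change was 2.20 with shDDX41 #1 (SE 0.297) and 0.03 with shDDX41 #2 (SE 0.376). SNORD44 (1.01, adjusted p = 0.0018), SNORD81 (1.23, adjusted p = 0.0026), SNORD77 (1.15, adjusted p = 0.0087), SNORD80 (0.70, adjusted p = 0.0057) and SNORD47 (0.50, adjusted p = 0.028) made up the rest. SNORD47 was also lower with shDDX41 #2 (−0.61, adjusted p = 0.026). With SNORD74 set aside, genes from the same host ranged from 0.27 (SNORD76, adjusted p = 0.32) to 1.23 (SNORD81) with shDDX41 #1.

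SNHG1 differed from GAS5 in its mix of directions. Of its 8 snoRNA genes, 2 were higher with shDDX41 #1, SNORD25 (0.97, adjusted p = 0.0031) and SNORD30 (0.70, adjusted p = 0.018), and SNORD27 was lower (−1.09, SE 0.276, adjusted p = 0.0046). Over all tested genes, 23.7% were higher and 24.1% lower. SNORD27 had 29, 33 and 36 counts in sh-Control A, B and D, 11, 18 and 13 in shDDX41 #1, and 22, 32 and 25 in shDDX41 #2. All its shDDX41 #1 libraries were below the other 6, although the host that contains it was higher there. With shDDX41 #2, 5 of the 8 were lower, beside 13.4% of all tested genes, and the host SNHG1 was itself at −0.73. The 5 were SNORD30 (−0.98, adjusted p = 0.013), SNORD31 (−0.98, adjusted p = 0.0041), SNORD25 (−0.97, adjusted p = 0.019), SNORD29 (−0.80, adjusted p = 0.012) and SNORD22 (−0.73, adjusted p = 0.022). SNORD25 had 37, 61 and 50 counts in the controls, 105, 83 and 78 in shDDX41 #1 and 35, 27 and 15 in shDDX41 #2, and its 3 groups did not overlap.

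Elsewhere, SNORA73A of SNHG3 was 1.40 higher with shDDX41 #1 (SE 0.245, adjusted p = 0.00027). SNORD50B of SNHG5 (1.02, adjusted p = 0.0016) was higher as well. SNORD12 of ZFAS1 also passed as higher (1.43, adjusted p = 0.017), but its groups overlapped. It had 10, 16 and 9 counts in sh-Control A, B and D and 36, 42 and 9 in shDDX41 #1, so its library D lay at the control level. SNORD12B of ZFAS1 had 7, 13 and 9 counts in sh-Control A, B and D, 37, 25 and 16 in shDDX41 #1 and 4, 11 and 4 in shDDX41 #2, and SNORD99 of SNHG12 had 6, 8 and 4, then 26, 16 and 26, then 8, 3 and 9. In counts, the shDDX41 #1 libraries were above all others for both, with fitted changes of 1.54 and 2.02. SNORA24 of SNHG8 was higher with shDDX41 #1 (0.94, adjusted p = 0.028) and lower with shDDX41 #2 (−1.17, SE 0.407, adjusted p = 0.047). Its shDDX41 #2 counts of 21, 13 and 6 overlapped the 15, 39 and 35 of sh-Control A, B and D. Of the other 3 snoRNA genes of SNHG12, SNORA16A and SNORA61 did not pass with either hairpin, and SNORA44 had a fitted change of 0.84 (SE 0.364) with shDDX41 #1. SNORA13 of EPB41L4A-AS1 had 5, 10 and 10 counts in sh-Control A, B and D, 12, 9 and 15 in shDDX41 #1 and 4, 4 and 3 in shDDX41 #2. It was at 0.65 with shDDX41 #1 and −1.18 with shDDX41 #2, and neither passed. Its passing of the filter rested partly on shDDX41 #1, so no p-value is given. The 3 SNORD1 genes of SNHG16 were too low to test.

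**Figure D3:**
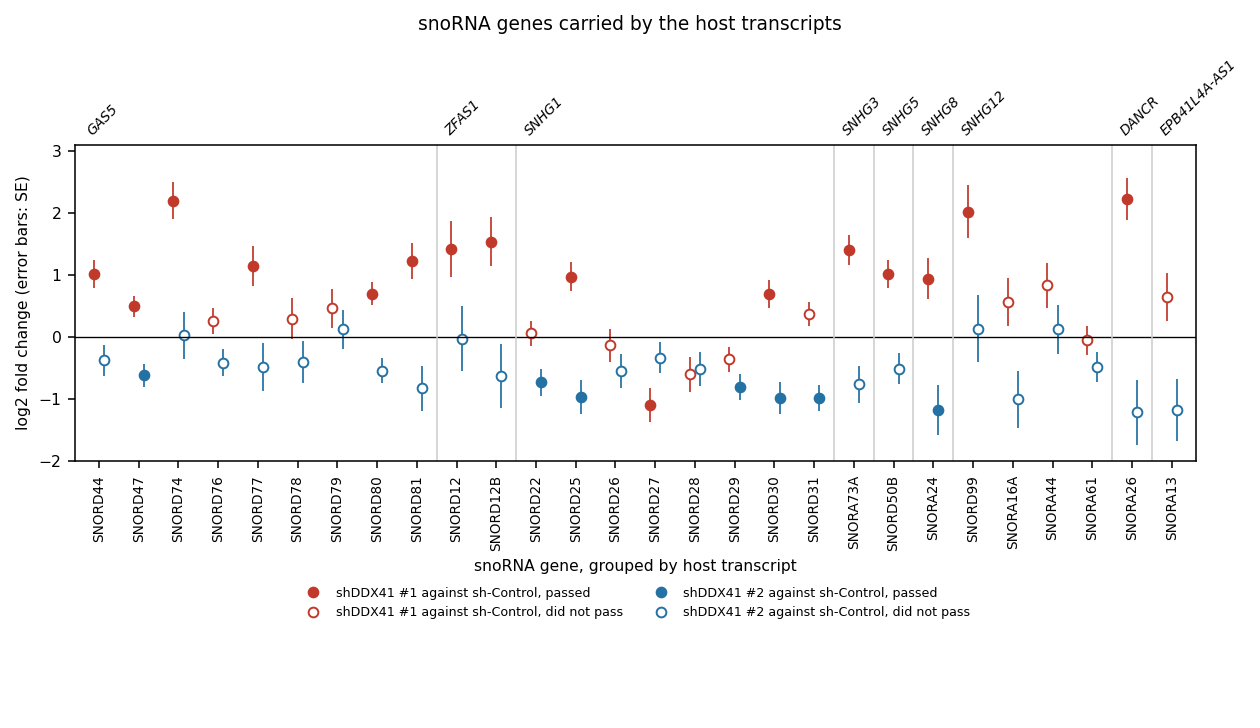
Fitted log2 fold change (y axis) with its SE for the 28 tested snoRNA genes (x axis), grouped by host, for each hairpin against sh-Control. Filled points passed an adjusted p of 0.05, and SNORA26, SNORD74, SNORD99, SNORD12B and SNORA44 entered the test through shDDX41 #1. The shDDX41 #1 points lie mostly above 0, with SNORD27 the filled exception, and every filled shDDX41 #2 point lies below 0.

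Dividing the summed snoRNA counts by the host counts shows how far the snoRNA rows kept pace with their host. This ratio was added after the data had been seen. For SNHG1 it was 20.1, 19.5 and 17.6 snoRNA counts per 100 host counts in sh-Control A, B and D, 11.8, 10.8 and 8.64 in shDDX41 #1, and 18.9, 19.6 and 17.6 in shDDX41 #2. The shDDX41 #1 libraries were all below the rest, with a group mean of 10.4 ± 1.60 against 19.1 ± 1.33 in sh-Control (SD, n = 3), a ratio of 0.545. For DANCR the direction was opposite, 0.412 ± 0.0134 in sh-Control, 1.14 ± 0.308 in shDDX41 #1 and 0.185 ± 0.0598 in shDDX41 #2, with no overlap between groups. GAS5 gave 9.19 ± 2.18, 7.18 ± 1.07 and 5.87 ± 0.477. Its shDDX41 #1 libraries overlapped both other groups, and shDDX41 #2 lay below sh-Control without overlap. SNHG12, at 35.1 ± 6.30, 39.6 ± 3.15 and 34.6 ± 2.87, had the highest ratios and overlapped throughout.

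In the same order of groups, the ratio was 3.13 ± 1.03, 3.79 ± 0.649 and 1.99 ± 0.446 for SNHG3, 3.38 ± 0.608, 4.13 ± 0.522 and 2.31 ± 0.441 for SNHG5, and 2.31 ± 1.12, 1.998 ± 0.578 and 0.953 ± 0.527 for SNHG8. It was 0.829 ± 0.370, 0.912 ± 0.474 and 0.536 ± 0.102 for ZFAS1, 0.885 ± 0.0941, 0.906 ± 0.385 and 0.596 ± 0.159 for SNHG16, and 1.48 ± 0.552, 0.911 ± 0.176 and 0.607 ± 0.101 for EPB41L4A-AS1. With shDDX41 #2 the ratio lay below sh-Control without overlap in 6 of 10 hosts, GAS5, SNHG3, SNHG5, SNHG16, DANCR and EPB41L4A-AS1, at 0.410 to 0.683 of the control mean. With shDDX41 #1 the groups did not overlap in 2 of 10, SNHG1 below and DANCR above. For levels, not ratios, 43.8% of all tested genes did not overlap with shDDX41 #2 and 53.1% with shDDX41 #1. Some ratios rest on few snoRNA counts. In sh-Control and then shDDX41 #2, libraries A, B and D had 7, 7, 7 and 4, 3, 2 for DANCR. They had 10, 12, 13 and 6, 10, 6 for SNHG16, and 5, 10, 10 and 4, 4, 3 for EPB41L4A-AS1. The SD over 3 libraries may understate the counting error of such small counts. With 3 libraries a group the exact two-sided permutation test cannot give a p under 0.1, so the 30 comparisons are given by their values.

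**Figure D4:**
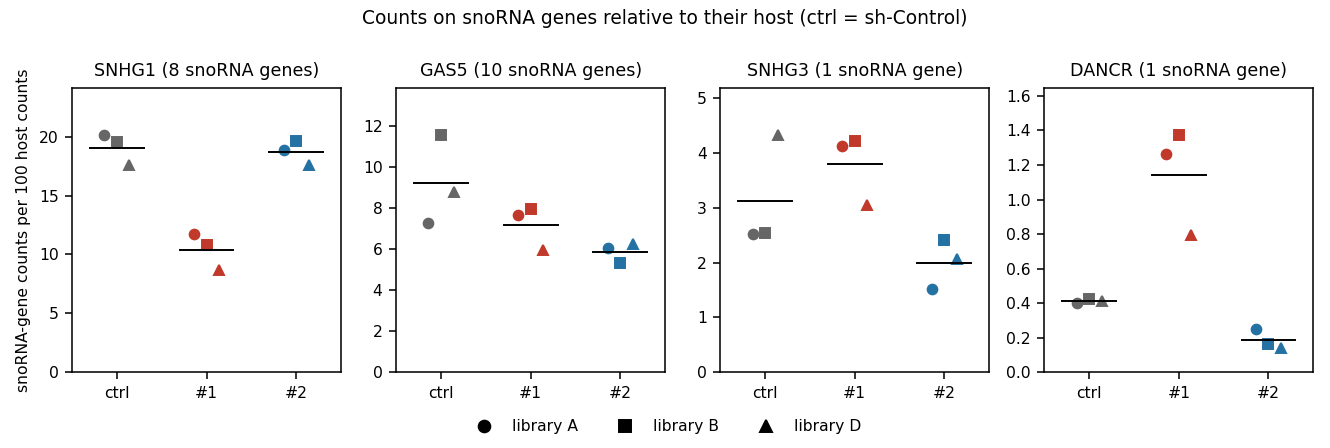
Counts on snoRNA genes per 100 counts on their host (y axis, from 0) by library and group (x axis) for 4 hosts, with lines at the group means. For SNHG1 the shDDX41 #1 libraries lie between 8.64 and 11.8, below all others, and for DANCR they lie between 0.793 and 1.37, above all others.

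Genes that overlap the hosts or start within 2 kb of them were read for the same libraries. ZNFX1, which overlaps ZFAS1 on the opposite strand, was higher with shDDX41 #1 (0.68, SE 0.124, adjusted p = 0.00036) and at 0.17 with shDDX41 #2 (adjusted p = 0.34). SLC3A2, an amino acid transporter subunit whose start lies 188 bp from that of SNHG1, was at 0.03 with shDDX41 #1 (adjusted p = 0.69) and lower with shDDX41 #2 (−0.53, SE 0.0608, adjusted p = 2.4e-05). RCC1, the nuclear exchange factor for Ran, overlaps SNHG3 on the same strand and was at −0.07 with shDDX41 #1 (adjusted p = 0.34) and lower with shDDX41 #2 (−0.17, adjusted p = 0.042). TRNAU1AP, opposite SNHG12, was lower with shDDX41 #1 (−0.54, adjusted p = 0.00035) and at −0.07 with shDDX41 #2 (adjusted p = 0.64). ZBTB37, opposite GAS5, was at 0.13 and 0.34 and did not pass with either. The labels name a stranded kit and the study's methods an unstranded one, so reads of ZFAS1 and ZNFX1, SNHG12 and TRNAU1AP, or GAS5 and ZBTB37 may not be fully separated. SNHG3 and RCC1 start 37 bp apart on the same strand, so a stranded kit would not separate the reads that they share either.

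The remaining non-coding hosts were read as a list of 25 symbols, of which 12 were in the table and 10 were tested. With shDDX41 #1, 7 of 10 were higher and 0 lower (23.7% and 24.1% of all tested genes), with a median of 0.53. SNHG7 (1.19, SE 0.11, adjusted p = 6.2e-07), C6orf48 (1.10, SE 0.0851, adjusted p = 1.1e-07) and SNHG4 (0.97, SE 0.116, adjusted p = 8.7e-06) had the smallest adjusted p. SNHG9, SNHG10 and SNHG11, all low, did not pass. With shDDX41 #2, C6orf48 was higher (0.43, adjusted p = 0.0021), SNHG17 (−0.35, adjusted p = 0.013) and SNHG15 (−0.35, adjusted p = 0.036) were lower, and the median was −0.05. These calls were 10% higher and 20% lower, beside 11.6% and 13.4% of all tested genes. Without sh-Control B or without shDDX41 #2 B there was 1 call in place of 3. Between the hairpins 8 of 10 were higher in shDDX41 #1 and 0 lower, beside 24.6% and 24.2% of all tested genes, with a median of 0.64.

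Protein-coding hosts, which release snoRNAs from introns of stable mRNAs, were mostly ribosomal protein and translation factor genes. With shDDX41 #1, 36 of 54 were higher (66.7%) and 10 lower (18.5%), beside 23.7% and 24.1% of all tested genes, with a median of 0.46. EEF2 (0.69), EIF4A2 (0.72) and RPL13A (0.85) were among the higher genes, with adjusted p of 9.6e-06, 1.0e-05 and 2.3e-05. DKC1, the pseudouridine synthase of H/ACA particles and itself a host, was lower, at −1.02 (SE 0.0672, adjusted p = 2.4e-08), and IPO7 (−0.43) and EIF4G1 (−0.44) were lower too. With shDDX41 #2, 6 of 54 were higher (11.1%) and 9 lower (16.7%), shares near the 11.6% and 13.4% of all tested genes. The median was 0.12, and neither the number nor the balance of these calls was stable. They were 25 higher and 13 lower without shDDX41 #1 D, 0 and 5 without shDDX41 #2 D, 0 and 6 without sh-Control B or shDDX41 #2 B, and 1 and 6 without shDDX41 #2 A. Between the hairpins 30 were higher in shDDX41 #1 (55.6%) and 7 lower (12.96%), beside 24.6% and 24.2% of all tested genes. The median was 0.27.

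The proteins that bind or assemble snoRNAs formed a list of 16 tested snoRNP genes. With shDDX41 #1, 4 were higher and 4 lower (25.0% each), shares near the 23.7% and 24.1% of all tested genes. SHQ1, a chaperone of DKC1, was higher (0.43, adjusted p = 0.00019), and besides DKC1 the H/ACA core protein gene NHP2 (−0.41, adjusted p = 0.00047) and the assembly ATPase RUVBL2 (−0.33, adjusted p = 0.0015) were lower. Without sh-Control B the 8 calls became 5. With shDDX41 #2, 1 was higher (6.25%) and 8 were lower (50%), beside 11.6% and 13.4% of all tested genes. SHQ1 was the higher gene (0.61, adjusted p = 2.8e-05). The lower genes were led by the C/D core gene NOP56 (−0.38, adjusted p = 0.00032) and the assembly factors ZNHIT6 (−0.40, adjusted p = 0.00085) and NUFIP1 (−0.38, adjusted p = 0.0025). The medians were 0.00 and −0.18. Between the hairpins 9 were higher in shDDX41 #1 (56.25%) and 4 lower (25.0%), beside 24.6% and 24.2% of all tested genes. The median was 0.22, and the 13 calls became 8 without shDDX41 #2 D.

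NMD factors, which remove transcripts with premature stop codons, formed a list of 23 tested genes, of which 8 were lower (34.8%) and 2 higher (8.70%) with shDDX41 #1, beside 24.1% and 23.7% of all tested genes. Whether the list differed from other genes was not tested. MAGOH, a core subunit of the exon junction complex, was lower, at −0.83 (SE 0.0992, adjusted p = 8.6e-06), as were its paralog MAGOHB at −0.53 (adjusted p = 0.00020) and the decapping enzyme gene DCP2 at −0.62 (SE 0.0748, adjusted p = 8.7e-06). DCP1A (0.48, adjusted p = 0.0012) and SMG9 (0.26, adjusted p = 0.0050) were higher. With shDDX41 #2, 4 were lower, among them SMG5 (−0.33, adjusted p = 0.0024) and DHX34 (−0.39, adjusted p = 0.0063), and 2 were higher, SMG6 (0.30, adjusted p = 0.0074) and XRN1 (0.39, adjusted p = 0.013). These calls were 17.4% lower and 8.70% higher, beside 13.4% and 11.6% of all tested genes. Without shDDX41 #2 D they numbered 2 lower and 1 higher. Between the hairpins 5 were higher in shDDX41 #1 (21.7%) and 8 lower (34.8%), beside 24.6% and 24.2% of all tested genes. The medians were −0.08, −0.07 and −0.06.

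Protein-coding NMD targets formed a list of 20 tested genes. Of these, 3 were higher with shDDX41 #1 (15.0%, beside 23.7% of all tested genes). They were GADD45B (0.55, adjusted p = 0.00016), GADD45A (0.62, adjusted p = 0.0014) and ATF3 (0.49, adjusted p = 0.023), all of them stress-induced genes. Another 5 were lower (25.0%, near the 24.1% of all tested genes), with asparagine synthetase gene ASNS (−0.62, adjusted p = 7.6e-06), TRIB3 (−0.57, adjusted p = 2.2e-05) and CARS (−0.28, adjusted p = 0.0042) leading. The median was −0.05. With shDDX41 #2, 0 were higher and 10 lower (50%), beside 11.6% and 13.4% of all tested genes, with a median of −0.29. The lower genes included TBL2 (−0.53, adjusted p = 8.0e-05), DDIT3 (−0.96, adjusted p = 0.00011) and TRIB3 (−0.52, adjusted p = 0.00017). Between the hairpins 8 were higher in shDDX41 #1 (40%) and 1 lower (5%), beside 24.6% and 24.2% of all tested genes, with a median of 0.12. Several genes stand in more than 1 list, such as DKC1, NOP56 and SMG5. Whether any list differed from another was not tested.

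**Figure D5:**
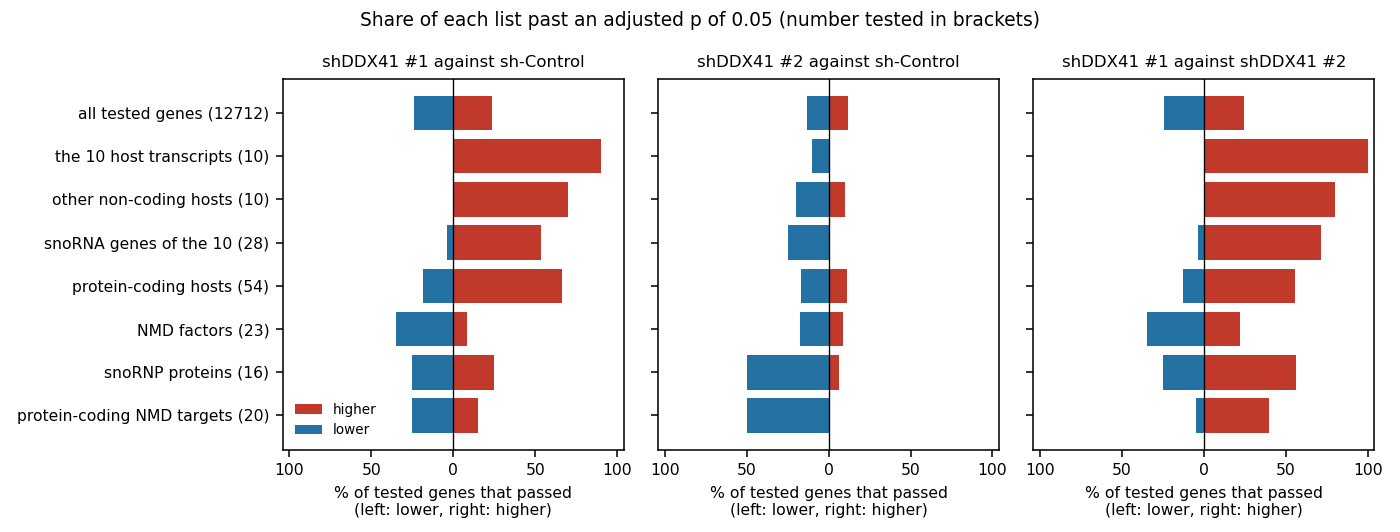
Percent of the tested genes of each list that passed an adjusted p of 0.05 as higher (right) or lower (left) in the 3 comparisons, with all 12712 tested genes at the top. All lists were chosen with earlier results known. The bars of other non-coding hosts, of snoRNA genes and of protein-coding hosts point mostly to the right for shDDX41 #1, and those of snoRNA genes, snoRNP proteins and protein-coding NMD targets mostly to the left for shDDX41 #2.

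The genes whose log2 CPM over the 9 libraries was most like the mean of the 10 hosts were sought among 8845 tested genes with at least 10 CPM. These were UTP3 (Pearson r = 0.996), a ribosome biogenesis gene, PVT1 (0.994), a long non-coding RNA, TMEM206 (0.994), EIF4A2 (0.993), itself a snoRNA host, and CARKD (0.993). The 3 shDDX41 #1 libraries stood apart from the other 6 on the hosts' mean, so each r rests mainly on that gap and is given as a description. UTP3, for example, was at 57.8, 63.0 and 64.2 CPM in sh-Control A, B and D, 88.8, 89.4 and 101 CPM in shDDX41 #1 and 61.2, 59.6 and 59.2 CPM in shDDX41 #2. Its rise was smaller than that of most of the hosts, at 0.60 (SE 0.0709) with shDDX41 #1.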

How the data were processed

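RNA from sorted MOLM13 cells was sequenced by the authors as poly(A)-selected libraries, and they deposited whole-number read counts per gene symbol for 9 libraries, not normalized. The submitters' processing notes name FastQC 0.11.7, HISAT2 2.0.5 and featureCounts 1.5.2 and the builds hg38 and mm10, without saying which made these counts. How reads shared by overlapping genes were counted is not given in the sources used here. No column was left unmapped (0).

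Counts were fitted in R 4.3.3 with edgeR 4.0.16 (filterByExpr with a minimum count of 10, TMM scaling, quasi-likelihood F test, all 9 libraries, 1 coefficient per group), adjusted by Benjamini-Hochberg over 12712 genes. A gene passed at an adjusted p under 0.05. SD values are over 3 libraries. The script was tested on simulated counts. Positions of hosts came from RefSeq (GRCh38.p14), and exons, neighbours, printed snoRNAs and transcript starts from GENCODE release 29 (GRCh38).

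The hosts and the lists were chosen with earlier results of these data known. Named genes were all hosts, DDX41, the tested snoRNA genes, neighbours, up to 3 genes per list and direction with the smallest adjusted p, and the 5 most similar profiles. Some marker genes of other cell types are not reported here by name. Alternatives were other scalings and filters, DESeq2 1.42.0, limma voom 3.58.1, the 6 compared libraries alone, a replicate block and each library left out.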

Additional observations from a re-analysis of the deposited data

Results flagged for a closer look

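For 5 hosts the hairpins gave fitted changes of opposite sign and the difference between the hairpins passed the threshold. The difference, shDDX41 #1 minus shDDX41 #2 on the log2 scale, was 1.75 for SNHG1 (1.02 and −0.73 against sh-Control), 1.24 for SNHG3 (1.16 and −0.08), 1.23 for SNHG16 (1.10 and −0.12), 0.86 for DANCR (0.77 and −0.09) and 0.73 for SNHG12 (0.26 and −0.47). The difference passed for all 10 hosts, so this part of the rule set none of them apart. Of the shDDX41 #2 changes, the one of SNHG1 passed against sh-Control, and for SNHG12 neither hairpin's change did. The 95% intervals of the shDDX41 #2 changes held 0 for SNHG3 (−0.26 to 0.10), SNHG16 (−0.28 to 0.03) and DANCR (−0.22 to 0.04), so their sign was not settled. The share of all genes that meet the rule was not computed. The hosts were chosen with these values known.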

How the results depend on the processing

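The counts of 9 hosts called with shDDX41 #1 and of 10 between the hairpins stayed at 9 and 10 under all 18 alternatives. The hosts were picked with these contrasts known, so nothing is read from that stability. The 1 host called with shDDX41 #2 became 4 with no filter on low counts, 3 in the 6 compared libraries alone, and 1 to 3 with a library left out. The added calls with no filter were GAS5 (0.21), ZFAS1 (0.23) and SNHG12 (−0.46). For SNHG5 the shDDX41 #2 change ran from −0.057 (without sh-Control A) to 0.15 (without sh-Control D) and was −0.016 without sh-Control B, and for SNHG8 from −0.016 (without sh-Control A) to 0.24, with −0.0055 without sh-Control B, so both turned sign. The cause was not tested.

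Calls among protein-coding hosts with shDDX41 #2 moved from 15 to 23 with no filter (16 higher, 7 lower), 35 in the 6 libraries alone (24 higher, 11 lower) and 5 to 38 with a library left out. Requiring 10 counts in every library tests fewer snoRNA genes and left 8 of 16 calls with shDDX41 #1 and 11 of 21 between the hairpins. With a library left out, snoRNA calls with shDDX41 #2 ran from 2 (without sh-Control B) to 12 (without sh-Control A), NMD factors from 3 to 8, other non-coding hosts from 1 to 3, and snoRNP calls from 5 to 9 with shDDX41 #1 and 8 to 13 between the hairpins.

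The letters A, B and D were not taken to pair the libraries, since not every same-lettered pair correlated above 0.1 in any comparison. Deviations of same-lettered libraries correlated at 0.07, 0.16 and 0.24 for shDDX41 #1 with sh-Control and between −0.06 and 0.02 in the other comparisons, and libraries matched their own letter best in 6 of 6, 1 of 6 and 2 of 6 cases. In the first of these comparisons the letters thus left a hint of pairing. With the letter as a replicate block, 9, 2 and 10 hosts were called for shDDX41 #1, shDDX41 #2 and between the hairpins. snoRNA rows held few counts, so their folds carry wide errors.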
